A study of Mus musculus with 6 samples.

Results

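The genes described here code for the tubulins, for the gamma-tubulin complex proteins whose symbols share that stem, and for the actin-like proteins of mouse testis. They are the protein-coding rows of the count table whose symbols begin with Tuba, Tubb, Tubd, Tube, Tubg, Actl or Actrt. The rule found 35 genes of 54100 in the table. Of these, 31 had 10 or more counts over the 6 libraries and 29 of them passed the filter on low counts and were tested. Tubb1, Tubb2b, Tubb4a and Actl6b stayed under 10 counts. The study compared testes of wild-type (WT) mice with testes of H3t deletion mice, which lack a testis histone of the H3 family, in connection with Leydig cells where spermatogenesis is disrupted. Each group had 3 libraries from cryosections, and the labels give the genotype alone, without strain, age or the form of the allele. Each title has its own number, but none is stated to be a separate animal, and the p-values therefore rest on the spread among these libraries alone, which may be technical. The targeted gene, listed as H3f4, had 390, 571 and 356 counts in the WT libraries and 0 in each deletion library.

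Microtubules are polymers of paired alpha and beta tubulin, and vertebrates carry several genes, called isotypes, for each. The proteins differ most in the acidic tail at their end, where enzymes add or remove tyrosine, glutamate and glycine. In the testis, microtubules form the meiotic spindle, the manchette that shapes the spermatid head, the axoneme of the sperm tail and the long tracks of Sertoli cells, the somatic cells that support germ cells. Gamma tubulin and its complex proteins start new microtubules, and delta and epsilon tubulin serve centrioles. Most actin-like (ACTL) and actin-related testis (ACTRT) proteins are made in spermatids, where several belong to the cytoskeleton around the nucleus, whereas ACTL6A is a subunit of nuclear chromatin complexes in many cells.

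Coding ends of main isotypes are shown because they code for the tail, where the alpha and beta isotypes differ most. Each is the last 48 coding bases, 5′ to 3′, from GENCODE M21 transcripts on GRCm38, with the last codon before the stop codon in capitals.
Tuba1c: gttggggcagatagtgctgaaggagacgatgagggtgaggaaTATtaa
Tuba3a: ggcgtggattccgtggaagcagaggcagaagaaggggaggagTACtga
Tuba3b: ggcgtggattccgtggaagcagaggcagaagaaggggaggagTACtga
Tuba4a: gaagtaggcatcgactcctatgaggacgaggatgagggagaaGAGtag
Tuba8: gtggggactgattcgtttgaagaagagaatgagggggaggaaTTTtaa
Tubb3: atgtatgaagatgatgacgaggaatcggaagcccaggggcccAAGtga
Tubb4b: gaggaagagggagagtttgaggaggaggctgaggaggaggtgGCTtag
Tubb5: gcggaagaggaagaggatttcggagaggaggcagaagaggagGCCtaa
They lie at chr15:99037962-99038009 (plus strand), chr6:125278358-125278405 (minus), chr6:145621340-145621387 (plus), chr1:75215622-75215669 (minus), chr6:121226032-121226079 (plus), chr8:123421635-123421682 (plus), chr2:25222308-25222355 (minus) and chr17:35834982-35835029 (minus), each within 1 exon. TAC and TAT code for tyrosine, so Tuba1c, Tuba3a and Tuba3b end in the tyrosine codon that is typical of alpha tubulin. Tuba4a ends in GAG, a glutamate codon, and Tuba8 in TTT, a phenylalanine codon. Tuba3a and Tuba3b differed at 0 of these 48 bases and at 41 of the 1353 bases of their coding sequences. The beta genes Tubb4b and Tubb5, which moved in opposite directions with TMM scaling, end in GCT and GCC, both alanine codons. Tubb3 ends in AAG, a lysine codon.

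In the deletion 7 members rose and 21 fell, of 29 tested, with TMM scaling and by edgeR's quasi-likelihood test at a false discovery rate of 0.05. Most of the transcriptome differed between these groups, and 84.5% of all genes tested were called, 38.4% higher and 46.1% lower. The members' 96.6% called is therefore near the share of all genes, and 72.4% of them were lower. Their median log2 change was -2.02, against -0.19 over all genes. No tested member overlapped between the groups, as was so for 85.9% of all genes. A log2 change of -5 or lower was found in 10 of the 29 members and in 17.4% of all genes. These 10 were Tuba8, Tuba3b and the actin-like and Actrt genes other than Actl6a. The 7 that rose with TMM were Tuba1a, Tuba1b, Tubb3, Tubb5, Tubgcp3, Tubgcp5 and Tubgcp6.

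Cell type markers moved with these genes. All 10 spermatid markers and all 9 spermatocyte markers fell. Their summed levels lay between 21400 and 23200 CPM (TMM-scaled counts per megacount of library size) in WT libraries and between 5.72 and 66.3 CPM in deletion libraries, and between 7150 and 7490 CPM against 358 to 414 CPM. All 20 Sertoli markers rose, with sums of 1170 to 1290 CPM against 5380 to 5460 CPM, and all 11 Leydig markers rose, with sums of 785 to 853 CPM against 7040 to 7540 CPM. All 10 macrophage markers rose, with sums of 109 to 119 CPM against 544 to 629 CPM. So did 5 of 8 endothelial markers, with sums of 54.6 to 62.3 CPM against 109 to 117 CPM. Among 7 myoid markers 5 rose and Actg2 fell, with sums of 625 to 647 CPM against 662 to 714 CPM. Actg2 carried much of the WT sum, at 368, 356 and 349 CPM, and was at 8.29, 6.69 and 8.96 CPM in the deletion. The close sums therefore do not show that the other myoid markers kept their level. While 4 of 9 spermatogonial markers rose and 2 fell, their sums were 470 to 539 CPM against 341 to 400 CPM. Of 6 markers of ciliated cells 1 fell, with sums of 57.0 to 81.0 CPM against 0.0904 to 6.96 CPM. Few of these markers carried that sum, since Cdhr3, Pax8 and Mcidas had 0 counts in WT, and Gmnc had 0 in the deletion. The part of these cells in the members' changes was not tested, and in bulk tissue fewer cells of a type and less RNA per cell cannot be told apart. Scaling so that the mean log2 level of the Sertoli or the Leydig markers is equal in every library shifted the members by a median of -2.14 and -3.22 on the log2 scale. With these scalings 0 members were higher, and 25 and 28 were lower, of 29. Rises below are with TMM scaling, and each member's rise is followed by its value at equal Sertoli marker level. With no scaling factor the median of all genes moved from -0.19 to 0.45, 8378 genes were higher and 6425 lower in place of 6542 and 7861, and 7 members were higher and 20 lower. With upper-quartile scaling the median was 0.35, with 8111 genes higher and 6609 lower. Depth was similar, with 8037826 to 10702930 counts per library.

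**Figure D1:**
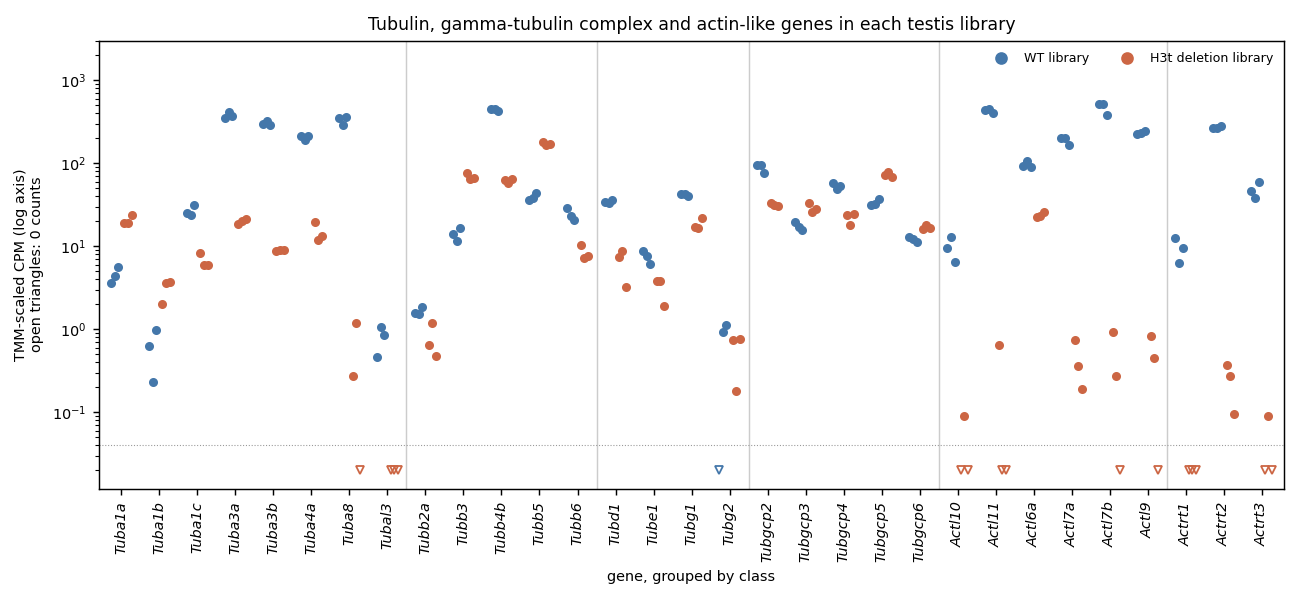
TMM-scaled CPM on a log axis for the 31 members with 10 or more counts, grouped by class, with 1 point per library (blue WT, orange H3t deletion) and open triangles for 0 counts. The actin-like and Actrt genes other than Actl6a sit above 6 CPM in every WT library and below 1 CPM in every deletion library, whereas Tubb3 and Tubb5 sit higher in the deletion.

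Among alpha tubulins, the isotypes that dominated WT testis fell and 2 scarce ones rose with TMM. Tuba3a (ENSMUSG00000067702, chromosome 6, 125278274 to 125286042) was at 355, 412 and 367 CPM in WT and 18.7, 20.3 and 21.6 CPM in the deletion. Tuba3b (ENSMUSG00000067338, chromosome 6, 145615757 to 145621479) was at 298, 327 and 286 CPM in WT and 8.84, 9.04 and 8.96 CPM in the deletion. Both genes, known for their expression in testis, fell far below their WT range in all 3 deletion libraries. The log2 changes were -4.22 ± 0.11 (SE) for Tuba3a and -5.08 ± 0.11 for Tuba3b, with adjusted p-values of 1.07e-14 and 2.94e-15 by edgeR. They share 35.3% and 29.5% of their 50-mers with other genes, mostly with each other, so their separate levels depend on how such reads were counted. The ratio of their levels per exon length, Tuba3a to Tuba3b, went from 1.46 ± 0.058 to 2.66 ± 0.177 (SD, n = 3).

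Tuba8 (ENSMUSG00000030137, chromosome 6, 121210696 to 121226854), an isotype known from testis and muscle, was at 351, 288 and 366 CPM in WT and had 3, 13 and 0 counts, or 0.276, 1.18 and 0 CPM, in the deletion. It was the alpha isotype with the largest fall, with a log2 change of -9.37 ± 0.28 (SE, edgeR adjusted p = 6.21e-14). Deletion replicate 2 held most of the remaining counts, and without it the change was -11.07. The opposite-strand gene Gm15856 accounts for most of the 14.7% of its 50-mers that are shared. Tuba4a (chromosome 1, 75214228 to 75219865), an isotype without the final tyrosine codon, went from 215, 190 and 213 CPM to 19.7, 11.8 and 13.4 CPM, a log2 change of -3.78. The opposite-strand gene Stk16 overlaps its exons and fell by 1.20 on the log2 scale. Tuba1c (chromosome 15, 99029891 to 99038110) fell less, from 24.9, 23.6 and 31.4 CPM to 8.38, 5.88 and 5.91 CPM, a log2 change of -1.98. Tubal3, a distant alpha tubulin, had 3, 9 and 6 counts in WT and 0 in the deletion. It was not tested, and its WT level was at least 8.49-fold higher than the floor of 3 counts over the deletion libraries.

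The alpha isotypes that rose with TMM lie close together on chromosome 15, and Tuba1c, which fell, lies near them. Tuba1a (ENSMUSG00000072235, 98949837 to 98953703) was at 3.58, 4.42 and 5.64 CPM in WT and 19.2, 18.9 and 23.8 CPM in the deletion. The groups were well apart, with a log2 change of 2.17 ± 0.22 (SE, edgeR adjusted p = 2.39e-07), which became 0.04 at equal Sertoli marker level. Tuba1b (98931425 to 98934565) had 4, 2 and 7 counts in WT and 22, 40 and 39 in the deletion. Its log2 change was 2.36 ± 0.56 (SE, edgeR adjusted p = 1.09e-03), and 0.23 at equal Sertoli marker level. Tuba1a and Tuba1b code for ubiquitous alpha tubulins of dividing cells and neurons. They share 75.5% and 75.1% of their 50-mers with other genes, pseudogenes among them, and Tuba1c shares 52.7%. The part of shared sequence in their low counts was not tested.

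Among beta tubulins, Tubb4b fell while Tubb3 and Tubb5 rose with TMM. Tubb4b (ENSMUSG00000036752, chromosome 2, 25222160 to 25224702), the isotype known from cilia and sperm tails, was at 447, 450 and 431 CPM in WT and 63.6, 57.1 and 64.8 CPM in the deletion. It fell by 2.84 on the log2 scale (SE 0.09, edgeR adjusted p = 1.33e-13). It shares 41.3% of its 50-mers with other genes, chiefly the pseudogene Tubb4b-ps1, which had 470, 588 and 443 counts in WT and 15, 13 and 6 in the deletion. Tubb5 (ENSMUSG00000001525, chromosome 17, 35833921 to 35838306), the widely expressed isotype of dividing cells, went from 36.6, 38.3 and 43.6 CPM to 179, 164 and 169 CPM. Its log2 change of 2.11 ± 0.10 (SE, edgeR adjusted p = 1.79e-11) was -0.03 at equal Sertoli marker level. Tubb5 shares only 0.0892% of its 50-mers with other genes.

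Tubb3 (ENSMUSG00000062380, chromosome 8, 123411424 to 123422015), known as the neuronal isotype and also present in Sertoli cells, went from 14.2, 11.6 and 16.4 CPM in WT to 75.6, 64.6 and 66.0 CPM in the deletion. The groups did not approach each other, with a log2 change of 2.30 ± 0.15 (SE, edgeR adjusted p = 6.82e-10) and 0.15 at equal Sertoli marker level. Of 7 neuron markers 1 rose and 2 fell. Their summed level lay between 170 and 178 CPM in WT libraries and between 21.2 and 22.2 CPM in deletion libraries, where Elavl4 and Snap25 had 0 counts. Such a sum can rest on few of the markers, and the part of neurons in the change of Tubb3 was not tested. Tubb6 (chromosome 18, 67390717 to 67402749) fell, from 29.3, 23.1 and 21.0 CPM to 10.4, 7.14 and 7.72 CPM, a log2 change of -1.53. Tubb2a, with 10, 13 and 13 counts in WT and 7, 13 and 5 in the deletion, was the one tested member that did not pass, with a log2 change of -1.07 ± 0.51 (SE, edgeR adjusted p = 0.0633). It passed in 4 alternatives: at -1.24 with median-of-ratios scaling, -1.16 with limma voom, and -3.20 and -4.26 at equal Sertoli and Leydig marker level. Without deletion replicate 2 it passed as well, at -1.5.

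Shares within a library need no scaling factor. Counts per exon length were summed over each class, and each isotype's share of that sum was compared between the groups. In WT the alpha level was divided among Tuba3a at 39.1% ± 2.58, Tuba3b at 26.7% ± 1.64, Tuba8 at 23.2% ± 3.1 and Tuba4a at 8.69% ± 0.693 (SD, n = 3). Tuba3b and Tuba8 lay within their spread of each other. In the deletion the order was Tuba3a at 34.6% ± 1.93, Tuba1a at 29.5% ± 2.55, Tuba3b at 13% ± 0.652, Tuba4a at 10.5% ± 3.03, Tuba1c at 7.61% ± 1.74, Tuba1b at 4.29% ± 1.27 and Tuba8 at 0.571% ± 0.73. Tuba4a overlapped both Tuba3b and Tuba1c in this order, and in deletion replicate 1 its share, 13.9%, was above the 13% of Tuba3b. With the genes that share 50% or more of their 50-mers left out of the sum, the change in the share of Tuba3a turned from -4.51 to 19 percentage points. Tuba1a took 27.8%, 28.1% and 32.4% of the alpha level in the deletion libraries, against 0.315%, 0.378% and 0.487% in WT. Tuba4a kept overlapping shares, between 7.91% and 9.21% for WT, between 8.53% and 13.9% for the deletion (exact permutation p = 0.6).

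The beta shares changed places more completely. Tubb4b made up 87.2%, 88.4% and 86.7% of the beta level in the WT libraries and 23.5%, 23.8% and 25.7% in the deletion. Tubb5 went from 4.48%, 4.72% and 5.51% to 41.6%, 42.9% and 42.1%, and Tubb3 from 3.09%, 2.55% and 3.68% to 31.3%, 30.1% and 29.3%. Tubb5 thus led in the deletion, ahead of Tubb3 and Tubb4b, whereas in WT the shares of Tubb5 and Tubb6, at 4.9% ± 0.538 and 4.14% ± 0.666 (SD, n = 3), lay within their spread of each other. Tubb6 went from 4.14% to 2.83% ± 0.409. All shares tested except that of Tuba4a separated the groups, each at p = 0.1 by the two-sided exact permutation test, which is as low as 3 against 3 can give, and 0.11 adjusted over the 11 shares. Per exon length, the ratio of Tubb3 to Tubb5 was 0.69, 0.541 and 0.669 in WT and 0.751, 0.703 and 0.696 in the deletion, a far smaller difference than that of either to Tubb4b. The ratio of Tubb5 to Tubb4b went from 0.0561 ± 0.00651 to 1.73 ± 0.0869 (SD, n = 3).

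**Figure D2:**
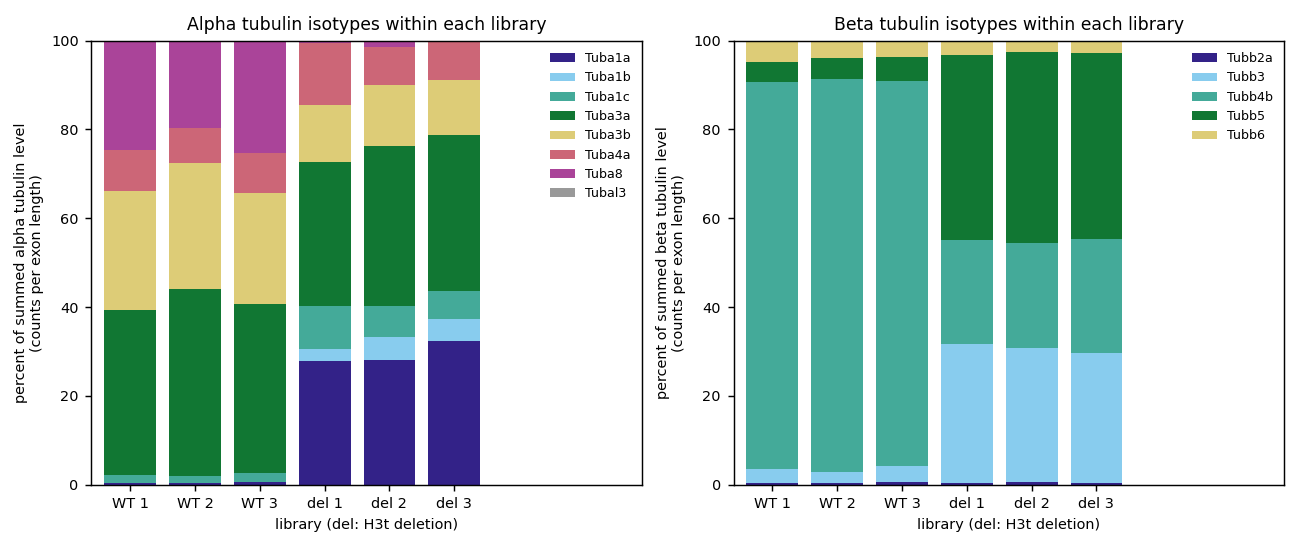
Percent of the summed level (counts per exon length) of alpha tubulin, left, and beta tubulin, right, that each isotype contributes, as stacked bars for each of the 6 libraries. Tubb4b fills 86.7% to 88.4% of the beta bars in WT and 23.5% to 25.7% in the deletion, and the Tuba8 band of WT shrinks to at most 1.39%.

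The alpha and beta classes as wholes moved unequally. Alpha tubulin reads were 0.0998%, 0.1% and 0.101% of all counts in WT and 0.00931%, 0.00894% and 0.00978% in the deletion. Beta tubulin reads were 0.0422%, 0.0422% and 0.0406% in WT and 0.0398%, 0.0371% and 0.0388% in the deletion. The log2 ratio of the summed alpha to the summed beta level per length went from 1.4 ± 0.0379 to -1.65 ± 0.102 (SD, n = 3). Proteins of both classes pair in equal number, but mRNA counts of Tuba1a, Tuba1b and Tuba1c were taken under the limit on shared sequence given above, and its part in this ratio was not tested.

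The other tubulin families fell. Tubg1 (chromosome 11, 101119938 to 101126419), the main gamma tubulin of centrosomes, went from 42.8, 42.9 and 40.7 CPM to 16.9, 16.4 and 21.8 CPM, a log2 change of -1.20 ± 0.15 (SE, edgeR adjusted p = 1.90e-06). Its neighbour Tubg2 had 0, 8 and 8 counts in WT and 8, 2 and 8 in the deletion, so the groups overlapped, and it was not tested. Tubd1 (chromosome 11, 86544991 to 86567360), delta tubulin, went from 34.1, 33.3 and 36.5 CPM to 7.46, 8.77 and 3.24 CPM, a log2 change of -2.41. Tube1 (chromosome 10, 39133976 to 39152542), epsilon tubulin, went from 8.87, 7.56 and 6.06 CPM to 3.78, 3.8 and 1.91 CPM, a log2 change of -1.24 that did not pass with upper-quartile scaling, at -0.70, or with no scaling factor, at -0.60. Per length, gamma tubulin Tubg1 at 18.6 ± 0.539 CPM per kb and delta tubulin Tubd1 at 16.7 ± 0.818 CPM per kb were close in WT (SD, n = 3).

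The gamma-tubulin complex proteins split. Tubgcp2 and Tubgcp3 code for the core subunits of the small complex, which binds gamma tubulin, and Tubgcp4, Tubgcp5 and Tubgcp6 for subunits found only in the ring complex. Tubgcp2 (chromosome 7, 139995955 to 140036669) fell from 96.2, 96.0 and 76.1 CPM to 33.5, 31.7 and 30.3 CPM, a log2 change of -1.49, and the opposite-strand gene Zfp511, which overlaps it, was at -1.87. Tubgcp3 (chromosome 8, 12614277 to 12672248) rose from 19.6, 17.0 and 15.5 CPM to 32.8, 26.2 and 28.5 CPM with TMM, a log2 change of 0.75, and was at -1.39 at equal Sertoli marker level. It did not pass glmTreat's test against 1.5-fold (adjusted p = 0.0748). The core pair thus went in opposite directions with TMM.

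Tubgcp4 (chromosome 2, 121170654 to 121198770) fell from 58.1, 49.4 and 53.4 CPM to 23.9, 18 and 24.6 CPM, a log2 change of -1.27. Trp53bp1, on the opposite strand, overlaps its exons and fell by 0.63. Tubgcp5 (chromosome 7, 55794154 to 55831677) rose from 31.8, 31.9 and 37.2 CPM to 72.8, 77.6 and 68.7 CPM with TMM, a log2 change of 1.12 ± 0.11 (SE, edgeR adjusted p = 2.21e-07) that was -1.02 at equal Sertoli marker level. Tubgcp6 (chromosome 15, 89098357 to 89123112) went from 12.8, 12.3 and 11.3 CPM to 16.3, 18.1 and 16.5 CPM, with a log2 change of 0.48 (edgeR adjusted p = 0.0182) and -1.66 at equal Sertoli marker level. Its call was lost with median-of-ratios scaling, with DESeq2, and without WT replicate 3 or deletion replicate 2, at 0.31, 0.31, 0.40 and 0.45, and also at a threshold of 0.01 and in glmTreat's test against 1.5-fold. Selenoo, which overlaps its exons on the opposite strand, was at 0.57. Of the 5 complex genes, Tubgcp2 was the most abundant per length in WT, at 22.5 ± 2.9 CPM per kb, and in the deletion Tubgcp5 and Tubgcp2, at 8.17 ± 0.497 and 8.0 ± 0.405 CPM per kb, lay within their spread of each other (SD, n = 3).

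**Figure D3:**
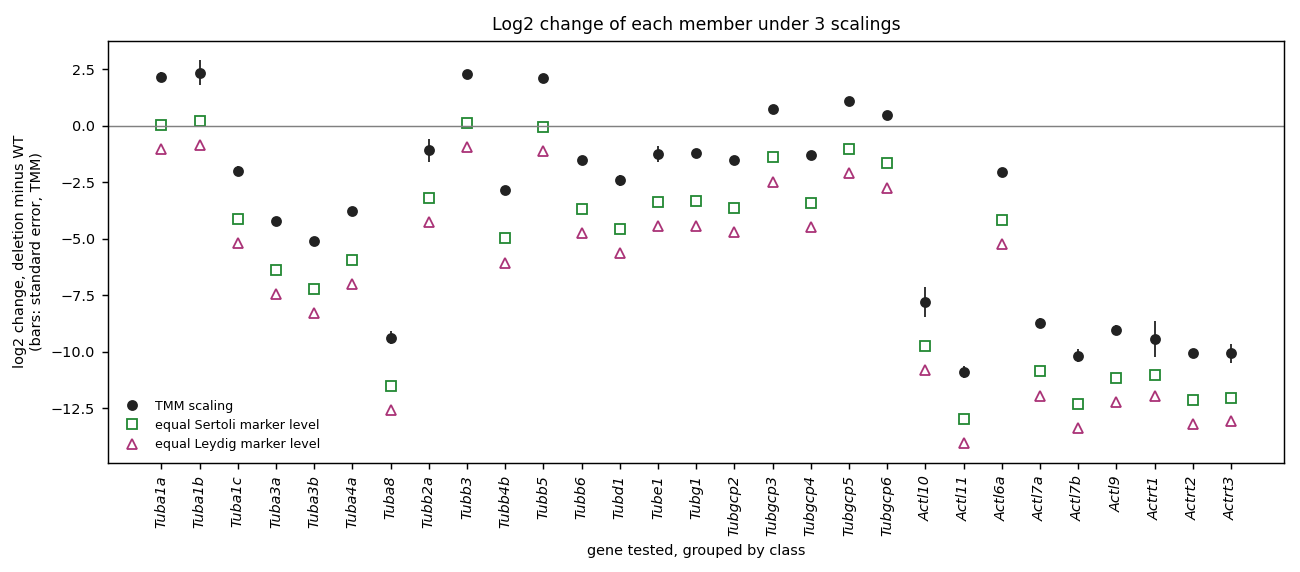
Log2 change, deletion minus WT, of the 29 tested members with TMM scaling (filled circles, bars give the standard error) and at equal Sertoli (squares) or Leydig (triangles) marker level. At equal Sertoli marker level Tuba1a, Tuba1b, Tubb3 and Tubb5 lie between -0.03 and 0.23, and at equal Leydig marker level between -1.11 and -0.83. Tuba8 and the 8 actin-like and Actrt genes other than Actl6a lie lowest with TMM.

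The actin-like and Actrt genes other than Actl6a were nearly lost. These 8 genes together had 11101, 14922 and 11071 counts in the WT libraries and 38, 17 and 3 counts in the deletion libraries, and all 8 fell. Deletion replicate 1 held most of the remainder. The summed spermatid markers stood in the same order as these sums, at 66.3, 23.6 and 5.72 CPM in deletion replicates 1, 2 and 3. A link between the orders was not tested, and the 1 deletion count each of Actl10 and Actrt3 lay in replicate 2. Actl7b (ENSMUSG00000070980, chromosome 4, 56740005 to 56741443), a spermatid actin-like protein, was at 525, 524 and 384 CPM in WT and 0.921, 0.271 and 0 CPM in the deletion, a log2 change of -10.17 ± 0.28 (SE, edgeR adjusted p = 2.86e-14). Without deletion replicate 1 the change was -11.59. The noncoding gene Gm26657 overlaps 90.6% of the 50-mers of Actl7b on the opposite strand and had 35, 47 and 12 counts in WT and 0 in the deletion.

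Actl7a (chromosome 4, 56743413 to 56744925), needed for the attachment of the acrosome, lies 1969 bases from Actl7b in the opposite orientation. It was at 203, 199 and 168 CPM in WT and 0.737, 0.362 and 0.191 CPM in the deletion, a log2 change of -8.73, or -9.33 without deletion replicate 1. Actl9 (chromosome 17, 33432896 to 33434268), of the perinuclear theca, went from 224, 233 and 242 CPM to 0.829, 0.452 and 0 CPM, a log2 change of -9.03, or -9.88 without deletion replicate 1. Actl11 (chromosome 9, 107928469 to 107932461) was at 441, 452 and 408 CPM in WT and had 7, 0 and 0 counts in the deletion, all in replicate 1. Its log2 change was -10.88 ± 0.27 (SE, edgeR adjusted p = 8.17e-15). Without replicate 1 the deletion group was at 0 and the fitted change was -14.88. Actl10 (chromosome 2, 154551776 to 154553276) was the scarcest of the germ cell ACTL genes, with 62, 113 and 46 counts in WT and 0, 1 and 0 in the deletion. The ratio of WT to deletion was 324 (95% interval 57.6 to 12900, counting error only), and its fitted log2 change went from -7.78 to -9.41 without deletion replicate 2.

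All 3 Actrt genes fell. Actrt2 (chromosome 4, 154666433 to 154667867) was at 267, 270 and 284 CPM in WT and 0.368, 0.271 and 0.0953 CPM in the deletion, a log2 change of -10.04 ± 0.19 (SE, edgeR adjusted p = 1.17e-15). Actrt3 (chromosome 3, 30597073 to 30599939) had 297, 328 and 422 counts in WT and 0, 1 and 0 in the deletion, a ratio of 1540 (95% interval 275 to 60700, counting error only). Its fitted log2 change went from -10.07 to -11.70 without deletion replicate 2. Actrt1, on chromosome X (46329007 to 46330345), had 80, 54 and 68 WT counts. With 0 counts in each deletion library it was at least 102-fold lower there. Per length the order in WT was Actl7b at 332 ± 56.5, Actrt2 at 191 ± 6.22, Actl9 at 170 ± 6.57, Actl7a at 125 ± 12.5, Actl11 at 109 ± 5.74, Actrt3 at 24.5 ± 5.5, Actrt1 at 7.05 ± 2.31 and Actl10 at 6.5 ± 2.22 CPM per kb (SD, n = 3). Actl7a and Actl11, and Actrt1 and Actl10, lay within their spread of each other.

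Actl6a (ENSMUSG00000027671, chromosome 3, 32706298 to 32726973) fell much less than the germ cell genes that share its symbol stem. It was at 92.0, 108 and 89.5 CPM in WT and 22.3, 23.4 and 25.9 CPM in the deletion, a log2 change of -2.02 ± 0.12 (SE, edgeR adjusted p = 2.27e-10). Its opposite-strand neighbour Mrpl47, which overlaps it, fell by 2.68. The genes of the nuclear complexes that hold ACTL6A, which remodel or acetylate chromatin, were mixed, with 6 of 25 higher and 15 lower and a median log2 change of -0.53, against -0.19 over all genes, of which 38.4% were higher and 46.1% lower. With no scaling factor 10 were higher and 9 lower. Ruvbl2, an ATPase of INO80 and NuA4, was at -3.31 and Dmap1 at -2.35, while Smarcd3, Arid1b and Trrap rose with TMM by 2.60, 2.0 and 1.43. Smarcd3 shares 44% of its 50-mers with other genes. At equal Sertoli marker level 0 of the 25 were higher and 23 lower.

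Promoter sequences are shown for genes of each pattern: the leading alpha and beta isotypes of WT, the leading beta isotype of the deletion, and an actin-like gene. Each is the 250 bases before the start site in RefSeq's table (GRCm38.p6), 5′ to 3′ on the gene's strand. Capitals mark TGACGTCA (the cyclic AMP response element), TGACG (the short form of that element), GTTGCC (an arm of the X-box of RFX factors), CCAAT and GGGCGG (a GC box), each searched on both strands. TGACG lies within TGACGTCA, so those matches overlap.
Tuba3a: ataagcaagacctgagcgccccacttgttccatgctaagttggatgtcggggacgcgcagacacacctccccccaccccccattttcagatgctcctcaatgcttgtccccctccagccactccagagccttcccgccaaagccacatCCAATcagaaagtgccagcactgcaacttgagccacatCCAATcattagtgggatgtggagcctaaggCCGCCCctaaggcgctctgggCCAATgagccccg
Tubb4b: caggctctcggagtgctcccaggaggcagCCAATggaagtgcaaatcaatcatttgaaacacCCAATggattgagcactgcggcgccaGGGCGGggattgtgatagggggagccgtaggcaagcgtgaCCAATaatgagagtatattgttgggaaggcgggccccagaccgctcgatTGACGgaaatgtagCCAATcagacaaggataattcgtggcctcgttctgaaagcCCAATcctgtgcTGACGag
Tubb5: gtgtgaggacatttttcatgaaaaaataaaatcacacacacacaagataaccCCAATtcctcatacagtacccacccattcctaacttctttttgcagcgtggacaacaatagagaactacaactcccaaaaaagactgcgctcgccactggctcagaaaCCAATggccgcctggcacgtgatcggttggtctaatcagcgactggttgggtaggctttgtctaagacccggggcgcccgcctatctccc
Actl7b: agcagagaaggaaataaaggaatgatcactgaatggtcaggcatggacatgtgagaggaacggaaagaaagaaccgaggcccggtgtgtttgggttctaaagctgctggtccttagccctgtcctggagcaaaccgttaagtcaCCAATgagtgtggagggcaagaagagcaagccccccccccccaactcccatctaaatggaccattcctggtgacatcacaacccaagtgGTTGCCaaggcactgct
The stretches lie at chr6:125286082-125286331, chr2:25224703-25224952, chr17:35838302-35838551 and chr4:56741426-56741675, all on the minus strand. Tubb4b held 5 CCAAT matches, Tuba3a 3, and Tuba3b and Tubb5 2 each. Of the 31 members with 10 or more counts, 28 had a promoter in the table, and Tubb6, Tubg1 and Tubgcp2 were not matched. CCAAT was in 10 of the 28, namely 7 of 18 lower and 3 of 7 higher genes, and in 33.8% of all 32851 promoters. GTTGCC was in 5 of 18 lower genes, Actl7b, Actrt1, Actrt2, Tuba1c and Tuba8, in 0 of 7 higher genes, and in 10.4% of all promoters. TGACG was in 5 of 18 lower and 1 of 7 higher genes, and in 17.8% of all. The full TGACGTCA was in Tubb2a, and in 1.55% of all. GGGCGG was in 10 of 28 members, with 5 of 18 lower and 4 of 7 higher genes among them, and in 32.7% of all. A match describes letters, not binding, and its absence says only that the letters are not in this window.

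Most genes for enzymes that modify tubulin tails fell. Of 30 tested genes for tail and acetylation enzymes, 26 fell and 3 rose, with a median log2 change of -3.88, where 84.5% of all genes were called and 46.1% were lower. The largest falls were in the TTLL ligases, which add glutamate or glycine. Ttll8, a glycylase, went from 225 ± 26 to 0.798 ± 1.14 CPM, Ttll6 from 237 ± 6.44 to 1.20 ± 1.29 CPM and Ttll13 from 662 ± 12.7 to 3.45 ± 0.461 CPM (SD, n = 3). The remaining counts were 23, 2 and 1 for Ttll8 and 29, 3 and 7 for Ttll6 in deletion replicates 1, 2 and 3, most of them in replicate 1. Agbl5, a carboxypeptidase that trims glutamate, was at -5.57. The 3 that rose with TMM were Ttl, which puts tyrosine back on alpha tubulin, at 2.95, Hdac6, a tubulin deacetylase, at 2.06, and Ttll12 at 1.79. Ttl was at 1.40, 0.698 and 0.987 CPM in WT and 7.09, 9.77 and 6.77 CPM in the deletion. At equal Sertoli marker level 0 of the 30 were called higher.

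Folding genes fell moderately. Of 23 genes of the CCT chaperonin, prefoldin and tubulin cofactors, which fold tubulin and actin, 17 fell and 2 rose. Their median was -0.98, against -0.19 over all genes. The called share was near the 84.5% of all genes, of which 46.1% were lower and 38.4% higher. Cct6b, the testis form of a chaperonin subunit, was at -7.32, Tcp1 at -3.87 and Cct7 at -2.63, while the general form Cct6a was at -0.52. Tcp1 alone went from 4510, 4780 and 4410 CPM to 327, 296 and 312 CPM. The cofactor Tbcd and the prefoldin subunit Vbp1 rose with TMM, by 0.83 and 1.45. With no scaling factor 5 of the 23 were higher and 11 lower, and at equal Sertoli marker level 0 were higher.

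Severing enzymes and the partners of the gamma-tubulin ring were mixed. Here too the background was 84.5% of all genes called, 38.4% higher and 46.1% lower. Of 9 tested severing and stathmin genes 6 fell and 2 rose (median -2.02). The katanin genes Katnal2 and Katnal1 were at -5.40 and -3.20, while Fign and Katnbl1 rose with TMM by 2.42 and 1.68. Of 16 gamma-tubulin partners 10 fell and 5 rose, with a median of -0.54. Mzt2 and Cdk5rap2, which bind or activate the ring complex, were at -3.94 and -3.58, and Haus1, of the augmin complex, at -3.69. Haus7, Haus8 and Ninl rose with TMM by 1.67, 1.06 and 0.54. With no scaling factor 8 partners were higher and 5 lower, and at equal Sertoli marker level 0 of either list were higher.

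Sperm head genes fell together with the actin-like genes, whereas cell-wide actin genes were divided. All 18 tested genes of the sperm head list fell, with a median of -9.16, against 46.1% of all genes lower. The list was drawn up for the sperm head cytoskeleton, but not every gene in it codes for a cytoskeleton protein. Plcz1, the egg-activating phospholipase, and Spem1 were at -10.02 and -9.92. Capza3, an actin-capping subunit of sperm, had 2014 counts in WT and 2 in the deletion, a ratio of 1480 (95% interval 408 to 12200, counting error only). Of 23 tested actin, Arp2/3 and dynactin genes, 10 rose with TMM and 10 fell (median -0.12), a called share near the 84.5% of all genes. Arpc1b and Arpc5, of the Arp2/3 complex that branches actin filaments, rose by 2.91 and 2.29, Acta2, of smooth muscle and myoid cells, by 1.5 and Actb by 0.78. Actg2, also among the myoid markers, fell by 5.49, Actr10, of dynactin, by 2.75 and Actg1 by 0.56, with 37.4% of the 50-mers of Actg1 shared. At equal Sertoli marker level 1 of the 23 was higher and 20 were lower.

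**Figure D4:**
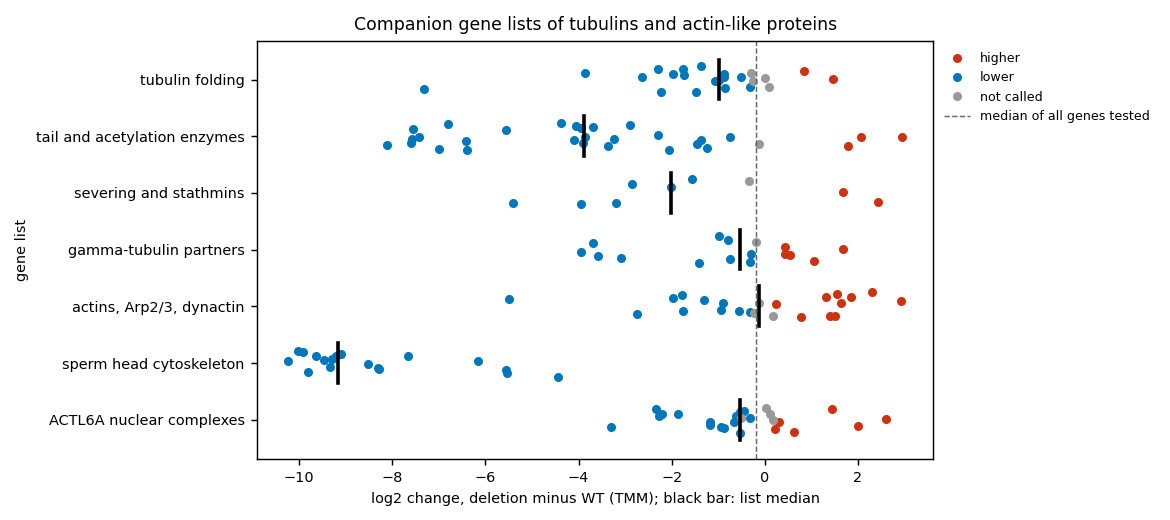
Log2 change, deletion minus WT with TMM scaling, of each tested gene in 7 companion lists (red higher, blue lower, grey not called), with list medians as black bars and the median of all genes tested, -0.19, as a dashed line. The sperm head list lies lowest, with a median of -9.16, and the actin list straddles 0.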

How the data were processed

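RNA from cryosections of mouse testis gave 6 bulk libraries, 3 WT and 3 H3t deletion, prepared with a SMART-Seq stranded kit (per the labels' protocols). The deposited values are raw read counts per Ensembl gene, from Trim Galore, HISAT2 and featureCounts on GRCm38, per the submitters' processing notes. The sources used here do not give tool versions, annotation release, strand setting or the handling of multiply mapped reads. The table had 54100 rows, of which 0 lacked a name, and 0 per-sample columns were left unused.

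Members and gene lists were chosen with earlier results of these data known. Genes were filtered with filterByExpr, scaled by TMM and tested by edgeR 4.0.16's quasi-likelihood test in R 4.3.3, with Benjamini-Hochberg adjustment over the 17038 genes tested and a threshold of 0.05. The SE is the log2 change over the root of the F statistic. Where all libraries of a group had 0 counts, a floor of 3 counts over the group was used. With 1 to 3 counts, the ratio of summed counts has a 95% exact binomial interval. Exon lengths, coordinates and coding sequences came from GENCODE M21, which holds all 54100 gene IDs, and promoters from RefSeq (GRCm38.p6). Isotype shares were tested by exact permutation.

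Named are members at 2% or more of their class's summed level per length, actin-like and Actrt members with a mean of 1 CPM or more, and tested members that go against their class. From each companion list come the 3 called genes with the largest change at a mean of 1 CPM or more, and up to 3 that go against the list. A gene and a sequence that these rules select are not reported here. The other members, Cct6a, Agbl5, Arpc5, Acta2, Actb, Actg1 and the overlapping genes were chosen after their values were seen.

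On counts simulated from the WT profile with 15261 genes, the same steps recovered 22 of 50 genes changed 1.5-fold, 30 of 49 changed 2-fold, 46 of 47 changed 4-fold and 49 of 49 changed 8-fold, with 12 false calls. A shift of most genes was not simulated. Alternatives were other scalings, filters, thresholds and tests (DESeq2 1.42.0, limma 3.58.1 voom), and each library left out.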

Additional observations from a re-analysis of the deposited data

How the results depend on the processing

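Of 29 tested members, 21 to 29 kept direction and call in each alternative, and 20 to 28 were lower. Left-out libraries gave 6 to 7 higher and 21 to 22 lower members. Among members with under 30% of their 50-mers shared, chosen after seeing the data, 5 were higher and 16 lower. Leaving out 1 library moved 7 members by over 1.5 times: Actl11 to -14.88, Actl7b, Actl7a and Actl9 as given above (deletion replicate 1), Actl10 to -9.41, Actrt3 to -11.70 and Tuba8 to -11.07 (deletion replicate 2). With few counts left these fitted values are no bounds. Depth limits what can be seen of the nearly lost genes, since 1 count was worth 0.0904 to 0.156 CPM. No paired analysis was possible because the labels give no replicate numbers shared by the groups. Some numbers in the titles are adjacent across groups, and the labels do not say whether this marks litters.

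At equal Sertoli marker level 0 members were higher, Tubgcp5, Tubgcp3 and Tubgcp6 reversed, to -1.02, -1.39 and -1.66, and Tubb5 was at -0.03 (edgeR adjusted p = 0.848). At equal Leydig marker level 0 were higher, and Tubgcp5, Tubgcp3, Tubgcp6, Tuba1a, Tuba1b, Tubb3 and Tubb5 were at -2.10, -2.47, -2.73, -1.04, -0.83, -0.92 and -1.11. These shifts follow from the scaling itself. Among members with under 50% of 50-mers shared, the change in the share of Tuba3a reversed from -4.51 to 19 percentage points, because the Tuba1 genes leave the sum.

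In the companion lists, folding genes called higher went from 2 to 4 with upper-quartile scaling, 5 with none and 1 in glmTreat's test against 1.5-fold, and those lower from 17 to 11 with no scaling. Gamma-tubulin partners called higher went from 5 to 8 with no scaling, 2 with glmTreat and 3 to 5 with 1 library left out, and those lower from 10 to 5 with upper-quartile and 5 with no scaling. ACTL6A complex genes went from 6 higher and 15 lower to 10 and 9 with upper-quartile and with no scaling, and to 3 and 9 with glmTreat. At equal Sertoli marker level 0 genes of the folding, tail, severing, gamma-tubulin partner and ACTL6A lists were higher and 1 actin gene was, with 16 partners, 20 actin genes and 23 ACTL6A genes lower. At equal Leydig marker level 0 genes of these 6 lists were higher, and 16, 22 and 25 were lower. Causes other than those named were not tested.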
